A study of Danio rerio with 4 samples.

Results

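Mitochondrial ribosomal protein genes were followed in RNA that came down with a tagged RNA helicase from early zebrafish embryos. They were taken as the genes whose zebrafish symbol begins with mrpl or mrps and a digit, in any case, and whose RPKM (reads per kilobase of transcript, scaled to the number of reads) reached 1 in at least 1 of the tables. This gave 59 of the 13341 genes that reached 1 RPKM in either table. Of 75 such symbols in the reference table of gene names, 63 were listed in the tables, 4 of them under the minimum, and the other 12 were not analysed here. The choice used level alone and not the difference between ages, but a gene that reached 1 RPKM in a single table had to be higher there. This holds for 5 members at 4 hpf (MRPL35, mrpl20, MRPL41, mrpl9 and MRPL10) and for MRPL32 at 2 hpf, and their directions are descriptions only.

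The embryos were wild type and had received an injection of flag-ddx3xb mRNA, which codes for a DEAD-box RNA helicase with a FLAG tag. They were lysed at 2 hours post-fertilization (hpf) or at 4 hpf. RNA bound to anti-FLAG beads was then sequenced (RIP-seq). Both ages share the injection and hold 2 biological replicates each, 4 samples in all, and the sample descriptions of all 4 carry the word control without saying of what. Without an input or mock library among the 4, a level here says how much of an mRNA came down and not how strongly it was enriched. The bound RNA came from whole embryos. Fewer cells of a type, less RNA per cell and less binding to the tagged protein cannot be told apart.

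Mitochondrial ribosomes translate the few proteins that are still encoded by mitochondrial DNA, all of them parts of the machinery of respiration. Their ribosomal RNA comes from the mitochondrial genome, but every protein subunit is encoded in the nucleus, translated in the cytosol and imported. The small subunit (mrps genes) binds mRNA and reads codons, and the large subunit (mrpl genes) joins amino acids. Some subunits descend from bacterial ribosomal proteins and others were added within the mitochondrial lineage. An early embryo relies on mitochondria and mRNA laid down in the egg.

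The values deposited for each age were 1 mean RPKM per gene. The low values of both tables moved in steps that whole reads of 2 libraries would give, which held for 94.9% of the 5253 genes under 0.3 RPKM in both tables. From these steps the read totals behind the RPKM came to about 4874000 and 10115000 reads in the libraries of 2 hpf and to about 7913000 and 15003000 in those of 4 hpf. Each of 10 genes of the zygotic genome, such as noto at 125 and 9.21 RPKM and tbx16 at 44.2 and 1.25 RPKM, was higher in the table labelled 2 hpf. Embryos switch these genes on with age, so every direction below rests on the age labels as given. None of 7 listed markers of differentiated tissues reached 1 RPKM. The median difference of all genes, taken as log2(RPKM + 1) in the table labelled 4 hpf minus that in the table labelled 2 hpf, was 0.66, which shows the shift between the tables that any 1 gene has to be read against.

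The 59 genes lay close to the middle of all genes in both tables. Their median level was 3.25 RPKM at 2 hpf and 4.11 RPKM at 4 hpf, with each table called by the age in its label. Single genes ran from 0.513 to 14.7 RPKM at 2 hpf and from 0.979 to 47.9 RPKM at 4 hpf. In the ranking of all tested genes their median percentile was 52.7 at 2 hpf and 47.4 at 4 hpf, a measure that rescaling a whole table cannot move. By rank, 30 of the genes stood higher at 4 hpf and 29 lower. The highest percentile was that of mrps31 in both tables, at 87.4 and 93.4. At 10 RPKM or more, there were 5 of the genes at 2 hpf and 11 at 4 hpf. The 5 highest genes held 27.0% of the family's summed RPKM at 2 hpf and 34.2% at 4 hpf. Although their proteins are built into a single particle, the genes were therefore precipitated at levels that differed among themselves by more than 10-fold in each table. Across the 59 genes the levels in both tables followed each other, with a Pearson r of 0.83 and a Spearman rho of 0.79 on the log2 scale, given as a description across genes.

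**Figure D1:**
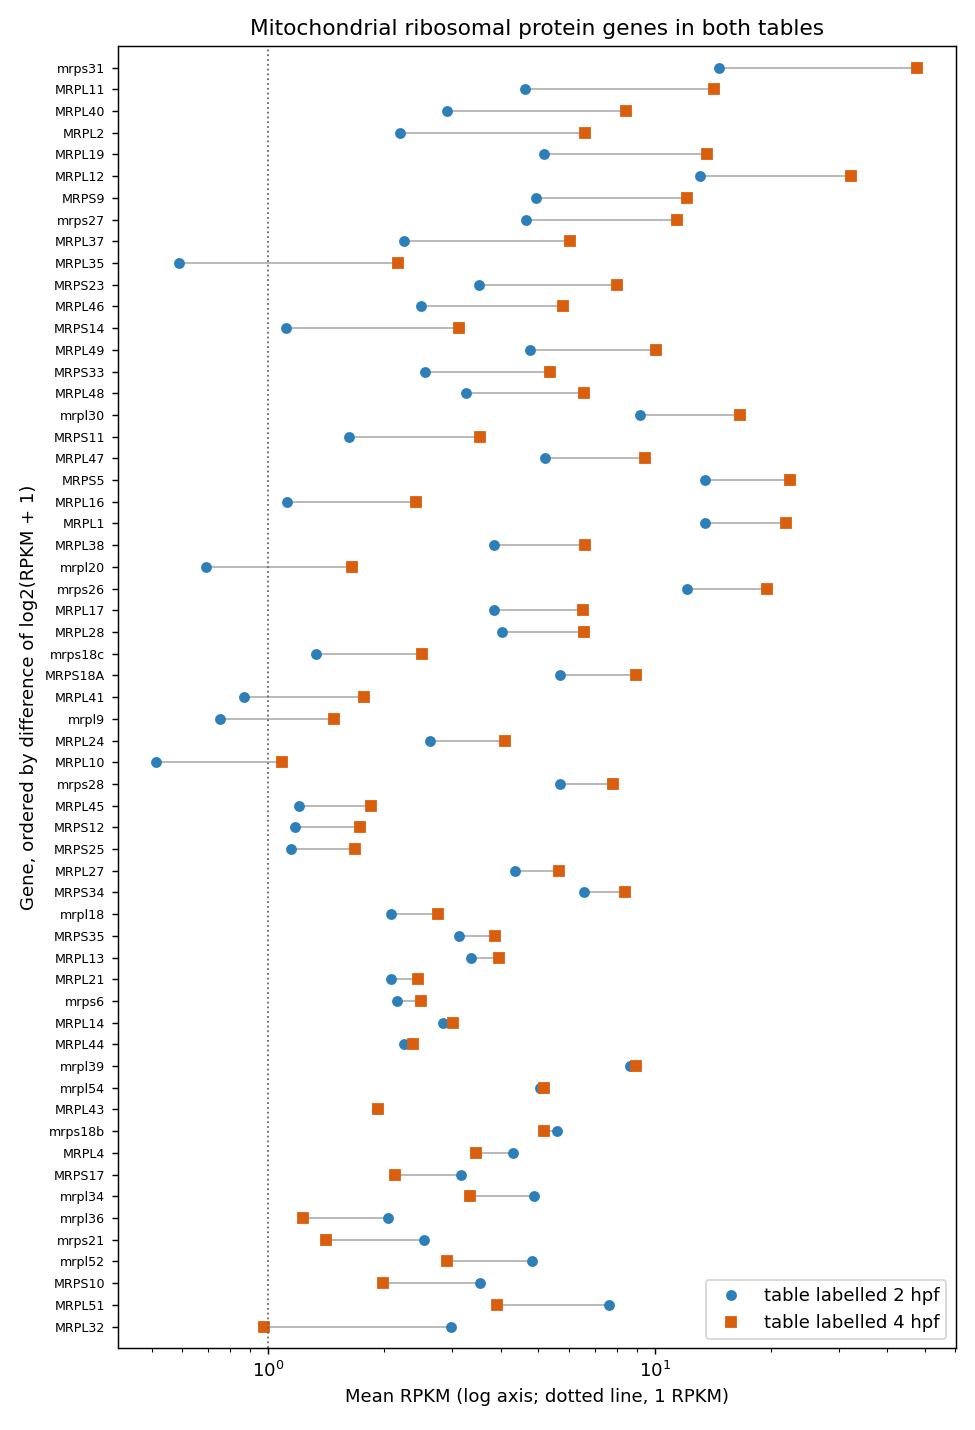
Mean RPKM (log axis) of the 59 mitochondrial ribosomal protein genes in the table labelled 2 hpf (circles) and the table labelled 4 hpf (squares), joined by a line and ordered by the difference of log2(RPKM + 1). In 49 genes the square lies to the right of the circle, from mrps31 (14.7 and 47.9 RPKM) at the top, and in 10 it lies to the left, down to MRPL32 (2.97 and 0.979 RPKM) at the bottom.

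The highest gene of the family was mrps31 (ENSDARG00000057855), a small-subunit protein with no bacterial counterpart. Its level was 14.7 RPKM at 2 hpf and 47.9 RPKM at 4 hpf, a difference of 1.64 and the widest among the 59. The next by mean level was MRPL12, whose product forms the flexible stalk that recruits translation factors and, in human cells, also binds mitochondrial RNA polymerase. MRPL12 stood at 13.1 RPKM at 2 hpf and 32.2 RPKM at 4 hpf, a difference of 1.23. In the deposited values both genes were thus high at both ages and more than 2-fold higher at 4 hpf. Their plain ratios of RPKM were 3.26 and 2.45, where the typical ratio was itself high. Its median was 2.04 over all genes that reached 5 RPKM at each age. Neither gene reached a difference of 1 once well-measured genes were given an equal median ratio. The same held after quantile normalization and on sums that leave out the 100 highest genes.

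Further genes that were high at 2 hpf differed less between the tables. MRPS5, which has a bacterial counterpart at the mRNA entry site of the small subunit, had 13.5 and 22.4 RPKM at 2 and 4 hpf (difference 0.69). MRPL1, the protein of the mobile stalk beside the exit site for spent tRNA, had 13.5 and 21.9 RPKM (0.66). For mrps26, a small-subunit protein without a bacterial counterpart, the values were 12.1 and 19.6 RPKM (0.65). These 3 differences lie within 0.03 of the median of all genes tested. They lie below the median of 1.022 for all genes that reached 5 RPKM in either table. The large-subunit gene mrpl30 stood at 9.17 and 16.7 RPKM, a difference of 0.80. By contrast mrpl39, a large-subunit protein without a bacterial counterpart, had 8.64 and 8.95 RPKM, and its percentile went from 78.2 to 65.8. Small upward differences among genes that reached 5 RPKM were also those of mrpl54 (5.05 and 5.16 RPKM, 0.03) and MRPL27 (4.36 and 5.66 RPKM, 0.31). MRPS34 had 6.58 and 8.41 RPKM (0.31), and mrps28 had 5.70 and 7.80 RPKM (0.39).

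Calls were made at a difference of 1 or more on the log2(RPKM + 1) scale, which is 2-fold in RPKM + 1. Upward this was reached by 9 of the 59 genes (15.3%) and downward by 1 (1.69%). Over all 13341 genes the same calls were made for 33.0% upward and 10.9% downward. Both shares of the family lie below those of all genes, and no test was made of either. The 9 were mrps31, MRPL11, MRPL40, MRPL2, MRPL19, MRPL12, MRPS9, mrps27 and MRPL37. Plain ratios of RPKM passed 2 in further genes, such as MRPS23 (2.28), MRPL46 (2.33) and MRPL49 (2.11), which were not called with the pseudocount. Downward, the lowest plain ratio after that of MRPL32 (0.33) was that of MRPL51 (0.51). Of the 59 genes, 49 had a difference above 0 and 10 below it, and the median difference was 0.57, against 0.66 for all genes and 0.75 for the 4319 genes whose mean level lay between the family's quartiles. Upward calls among those 4319 genes numbered 1550, and downward calls 416. The direction of the median rests on the scaling of the tables, since it became -0.24 when well-measured genes were given an equal median ratio and 0.84 when both tables were given the same sum. Upward calls made up 75.2% of all calls in the deposited values, 84.7% at an equal sum, 39.7% with quantile normalization, 25.4% on sums that leave out the 100 highest genes and 12% at an equal median ratio.

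The differences were also read against the median of all genes, with 2-fold again meaning 1 on the log2(RPKM + 1) scale. Of the 59 members, 0 lay above that median by 2-fold or more and 8 lay below it by as much. The shares of all genes were 7.85% above and 21.2% below. Of the 4319 genes of the family's level, 231 lay above and 711 below. The range of the family, from -1.003 to 1.64, is narrower than that of all genes, which ran from -7.54 to 3.92, though it covers far fewer genes. The quartiles of the family were 0.10 and 0.84, and those of all genes -0.11 and 1.17.

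Among the genes that were higher at 4 hpf, several code for the core of the large subunit that is shared with bacteria. MRPL11, a protein of the region where translation factors bind and hydrolyse GTP, stood at 4.63 RPKM at 2 hpf and 14.2 RPKM at 4 hpf (difference 1.43). MRPL2, which lies near the centre where peptide bonds form, had 2.19 and 6.62 RPKM (1.25). MRPL19, also of bacterial descent, had 5.18 and 13.6 RPKM (1.24). As plain ratios of RPKM, without the pseudocount, these 3 differences come to 3.07, 3.02 and 2.63.

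Large-subunit proteins without a bacterial counterpart were called too. MRPL40 had 2.90 and 8.42 RPKM (1.27), and MRPL37 had 2.25 and 6.06 RPKM (1.12). In the small subunit the called genes besides mrps31 were MRPS9 and mrps27. MRPS9, whose bacterial counterpart touches tRNA in the decoding subunit, stood at 4.95 and 12.1 RPKM (1.14). The values of mrps27, a protein of the pentatricopeptide repeat type, were 4.66 and 11.4 RPKM (1.132).

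The 10 genes that were lower at 4 hpf are named here after their values were seen, since most are low. MRPL32, a large-subunit protein that in yeast and mouse is cut to its mature form by the m-AAA protease before it joins the ribosome, had 2.97 RPKM at 2 hpf and 0.979 RPKM at 4 hpf. Its difference of -1.003 was the single downward call, and its percentile went from 50.1 to 13.2. MRPL51, a large-subunit protein added in mitochondria, had 7.65 and 3.91 RPKM (-0.82), with a percentile of 75.3 at 2 hpf and 46.2 at 4 hpf. Both were the widest downward moves in rank of the 59 genes.

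MRPS10, of the small-subunit head, was at 3.55 and 1.99 RPKM (-0.61). The large-subunit gene mrpl52 was at 4.83 and 2.90 RPKM (-0.58), and mrps21, of bacterial descent, at 2.54 and 1.41 RPKM (-0.55). The next were mrpl36 (-0.45), mrpl34 (-0.44) and MRPS17 (-0.41), which completed the 8 genes that lay 2-fold or more under the all-gene median. MRPL4 (-0.25) and mrps18b (-0.10) had the smallest downward differences. Of the 8 genes, 7 stayed under 5 RPKM in both tables.

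**Figure D2:**
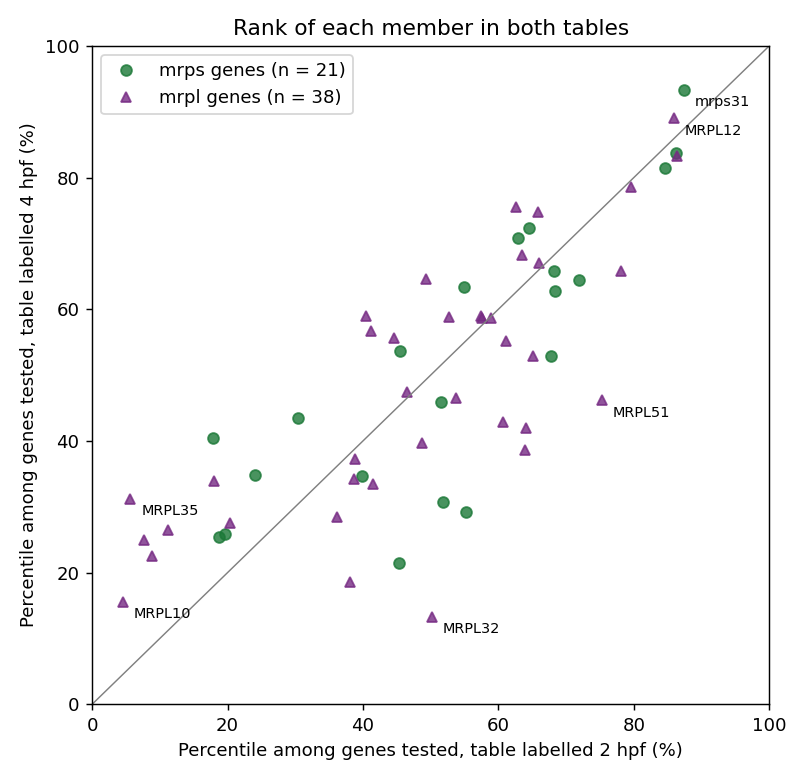
Percentile of each mitochondrial ribosomal protein gene among all tested genes in the table labelled 2 hpf (x axis, %) and in the table labelled 4 hpf (y axis, %), with circles for the 21 mrps genes and triangles for the 38 mrpl genes. The line marks an equal rank, 30 genes lie above it and 29 below, and MRPL32 and MRPL51 lie farthest under it.

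The small and large subunits could not be set apart by these values. Over all genes, 33.0% were called upward, 10.9% were called downward and 21.2% lay 2-fold or more under the all-gene median. The 20 small-subunit genes had a median difference of 0.49, with 3 called upward and none downward, while 3 lay 2-fold or more under the all-gene median. The 38 mrpl genes had a median difference of 0.53, with 6 called upward and 1 downward, while 5 lay 2-fold or more under it. The difference between these medians was -0.05, and its sign turned at a pseudocount of 5 (0.04) and with no filter (0.01). MRPS18A was kept out of both, since its product sits in the large subunit despite its symbol. It stood at 5.69 and 8.96 RPKM (0.57). Its relatives mrps18b and mrps18c, which like MRPS18A resemble a single bacterial small-subunit protein, stood at 5.61 and 5.17 RPKM and at 1.34 and 2.51 RPKM. MRPS12, whose bacterial counterpart guards the accuracy of decoding, was low at 1.17 and 1.73 RPKM (0.33).

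The subunits were also divided by the standard naming of ribosomal proteins, which counts MRPS18A and mrps18b as mitochondrial in spite of their likeness to a bacterial protein. The 35 genes with a bacterial counterpart in this naming had a median difference of 0.50 and the 24 without one a median of 0.57. Of the first, 5 were called upward (14.3%) and 1 downward (2.86%), and of the second, 4 upward (16.7%) and none downward. Over all genes the shares called were 33.0% upward and 10.9% downward. Median levels were 2.97 and 3.33 RPKM at 2 and 4 hpf for the first and 3.67 and 5.93 RPKM for the second. No test was made of these differences between classes.

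Level went with the difference. All 9 upward calls fell among the 30 genes that reached 5 RPKM in either table. Their median difference was 0.77, against 1.022 for all genes that reached 5 RPKM in either table. The 29 genes under 5 RPKM in both tables had a median of 0.24, no upward call and 1 downward. A gene could reach 5 RPKM by being higher in 1 table, and the added pseudocount of 1 shrinks the difference of low genes, so the split is partly built in. Across the 59 genes, mean level and difference gave a Pearson r of 0.39 and a Spearman rho of 0.37, and across all 13341 genes these were 0.315 and 0.43. Both are descriptions across genes that share libraries.

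At the lower limit of the family, MRPL10, which anchors MRPL12 to the ribosome, was just inside with 0.513 and 1.09 RPKM. So were mrpl9 with 0.752 and 1.48 RPKM and mrpl20 with 0.690 and 1.65 RPKM. Just outside were MRPL23 with 0.584 and 0.905 RPKM, MRPL57 with 0.796 and 0.745 RPKM, and mrpl58, a peptidyl-tRNA hydrolase that in human cells is part of the large subunit, with 0.347 and 0.315 RPKM. The fourth listed gene under the minimum, mrpl42, had 0.224 RPKM at 2 hpf and was not listed at 4 hpf. MRPS30, a large-subunit protein in spite of its symbol, and mrps36 were not analysed here.

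For 21 of the 59 genes, few enough reads stood behind the means that the whole reads of each library could be recovered. Over all tested genes this was possible for 2984, or 22.4%. These are the genes with few reads, so they are not a sample of the family: none of the 9 genes called upward is among them, and their median difference was 0.32 against 0.67 for the other 38. The reads given are the smallest whole numbers that return both deposited means, and the shallower and deeper library of each age cannot be matched to a replicate number. The 4 libraries together held between 30 and 121 reads per gene with a median of 51, and a single library held 1 to 59. Recovered transcript lengths ran from 364 to 1739 bases with a median of 686. Like the reads, they are the smallest that fit, so a true length may be a whole multiple of the one given.

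MRPL35, a large-subunit protein of bacterial descent, had 2 reads in the shallower and 4 in the deeper library of 2 hpf, and 13 and 20 in those of 4 hpf. Per length and depth this is 0.598 and 0.577 RPKM at 2 hpf and 2.39 and 1.94 RPKM at 4 hpf. The libraries of each age lie close together and the ages do not overlap, in a gene that is a member through its level at 4 hpf alone. MRPL32 had 10 and 17 reads at 2 hpf and 5 and 9 at 4 hpf, or 3.26 and 2.67 RPKM against 1.0045 and 0.954 RPKM. Here too the ages do not overlap, in the opposite direction, and the gene is a member through 2 hpf alone.

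MRPL51 showed another picture. Its libraries held 11 and 59 reads at 2 hpf and 18 and 28 at 4 hpf, which gives 4.27 and 11.03 RPKM against 4.30 and 3.53 RPKM. The lower mean at 4 hpf rests on the deeper library of 2 hpf, and without it the ages lie within 1 RPKM of each other. In mrpl52, with 6.19 and 3.48 RPKM at 2 hpf and 4.13 and 1.67 RPKM at 4 hpf, the ages overlap as well. In mrps21, with 2.82 and 2.26 RPKM at 2 hpf and 1.45 and 1.37 RPKM at 4 hpf, they do not.

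Of the 21 genes, both libraries of 4 hpf lay above both of 2 hpf in 11 and below both in 2, and the ages overlapped in 8. The shares over all 2984 recovered genes were 39.1% above and 36.5% below. For 5 of the 11 and 1 of the 2 the rule had set the direction, since they reached 1 RPKM in a single table. Among the 15 recovered members that reached it in both tables, a count added after the data were seen, 6 lay above, 1 below and 8 overlapped. The shares of the 964 recovered genes with 1 RPKM in both were 34.4% above and 16.7% below. MRPL35, MRPS14, mrpl20, mrps18c, MRPL41, MRPL10 and MRPS25 are among the 11, but rest on 1 to 7 reads in each library of 2 hpf. In MRPL10, the libraries of 2 hpf held 6 and 3 reads, or 0.827 and 0.199 RPKM, the widest ratio between libraries of that age among the 21 genes, at 4.15. In MRPL14, those of 4 hpf held 24 and 11 reads, or 4.86 and 1.18 RPKM. The typical gap was smaller, with a median ratio of the higher to the lower library of 1.48 at 2 hpf and 1.26 at 4 hpf, against 1.64 and 1.52 over all recovered genes. This comparison was not matched for level, since 15 of the 21 members but only 964 of the 2984 genes reached 1 RPKM in both tables.

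**Figure D3:**
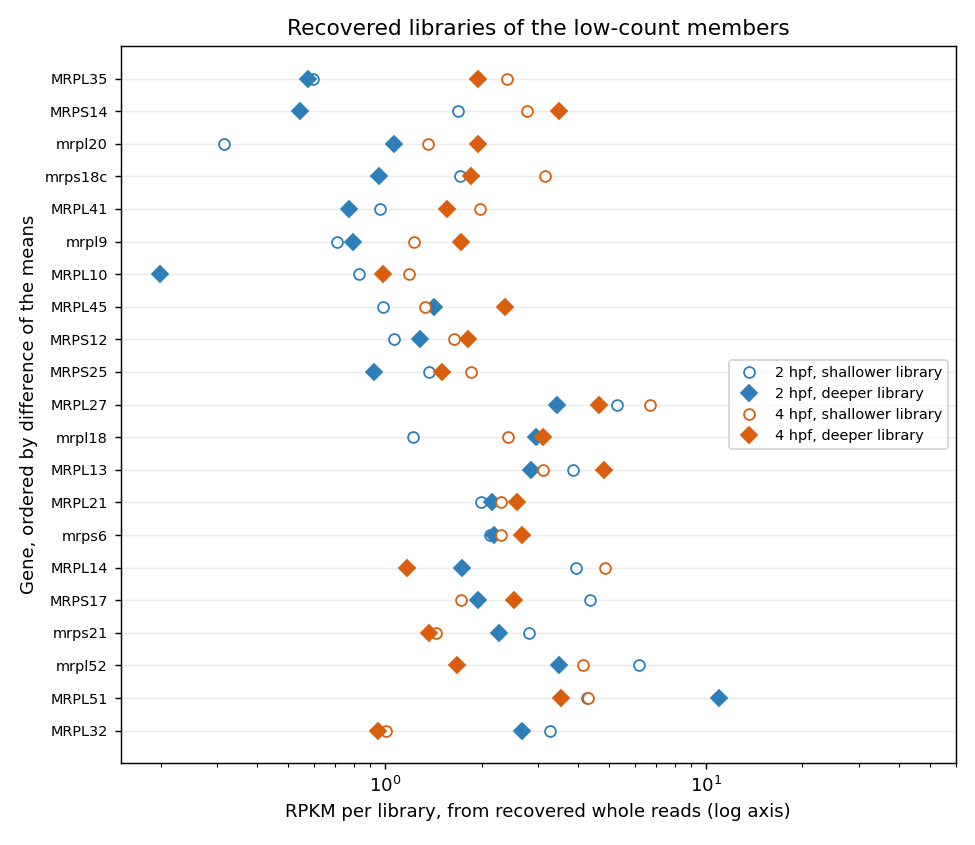
RPKM per library (log axis) for the 21 mitochondrial ribosomal protein genes whose whole reads were recovered, with blue for 2 hpf and orange for 4 hpf, open circles for the shallower and filled diamonds for the deeper library of each age. In 11 genes both orange points lie to the right of both blue ones, in 2 (mrps21 and MRPL32) to the left, and in 8 the colours overlap; the blue diamond of MRPL51 stands alone at 11.03 RPKM.

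A test over the recovered libraries was made with limma on log2(RPKM + 1) across all 2984 genes, an alternative added after the data were seen. MRPL35 was higher at 4 hpf by 0.99 with a standard error of 0.21 and an adjusted p of 0.0301 (limma, Benjamini-Hochberg over 2984 genes, both libraries in the same direction). MRPL32 was lower, with a difference of -0.999, a standard error of 0.24 and an adjusted p of 0.0367 by the same limma fit. Both are members through the single table in which they are higher, so the rule had set their directions and these p-values support no change of the family. None of the 15 recovered members with 1 RPKM in both tables passed, with MRPS14 next at a difference of 1.01, a standard error of 0.36 and an adjusted p of 0.0827 in limma. Of all 2984 recovered genes, 13.5% passed upward and 22.2% downward, but only 964 of them reached 1 RPKM in both tables. For the rest the minimum had set the direction, as for MRPL35 and MRPL32. No such share was computed for the 964 genes, so the result for the 15 members has no like share beside it. When each library was left out in turn, 0 to 1 members passed in either direction. Without either library of 4 hpf, none of all 2984 genes passed limma's adjusted threshold, although 421 to 457 upward and 622 downward had an unadjusted p under 0.05, so these fits say nothing about single members. Without the shallower library of 2 hpf, 103 genes passed upward and 502 downward, of which 1 and 0 were members, and without the deeper one 369 and 700, of which 0 and 1 were members. MRPL51, at -0.70 with a standard error of 0.53, had an adjusted limma p of 0.325. For MRPL14 the mean of the libraries' log2 values was lower at 4 hpf by 0.04 with a standard error of 0.60, whereas the log2 of the means was higher by 0.06, so no direction can be given for it.

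Recovered length, the smallest that fits, and the difference gave a Pearson r of 0.31 and a Spearman rho of 0.30 across the 21 recovered members. Across all 2984 recovered genes both were -0.08. The points share libraries and rest on few reads, so these are descriptions only.

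Genes that work with the mitochondrial ribosome were counted in the same way, from lists. Among the 4 measured subunits whose symbols do not start with mrp, the median difference was 1.01 and 2 were called upward. AURKAIP1 stood at 20.9 and 45.5 RPKM (1.09), GADD45GIP1 at 17.8 and 31.8 RPKM (0.80), and DAP3, a GTP-binding small-subunit protein, at 1.84 and 5.02 RPKM (1.09). AURKAIP1 was higher than all 59 mrps and mrpl genes at 2 hpf and second to mrps31 at 4 hpf. The 20 factors of mitochondrial ribosome assembly and ribosomal RNA modification had a median of 0.76, with 7 upward calls (35.0%, against 33.0% of all genes) and none downward. The widest was rbfa, which binds the maturing small subunit, at 7.98 and 35.0 RPKM (2.00). C1QBP, a chaperone-like protein of the mitochondrial matrix, had 25.2 and 63.3 RPKM (1.29), and the helicase gene DDX28 had 1.95 and 8.13 RPKM (1.63).

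Of 14 genes listed for mitochondrial translation, 6 were called upward (42.9%) and 1 downward (7.14%), with a median of 0.84. Most code for factors that start, extend, end or recycle translation. The list also holds QRSL1 (1.81), GATB (0.35), GATC (-0.82), the methionyl-tRNA formyltransferase gene mtfmt (1.51) and the translational activator gene taco1 (0.72). These are not counted among the factors of these steps, and QRSL1 and mtfmt are among the 6 upward calls. The shares of all genes, here and below, were 33.0% upward and 10.9% downward. The elongation factor gene GFM1 had 3.99 and 11.04 RPKM, and the initiation factor gene MTIF2 had 3.79 and 10.3 RPKM. The other initiation factor, mtif3, went the other way with 2.51 and 0.531 RPKM (-1.20). Of 9 mitochondrial aminoacyl-tRNA synthetases, which load tRNA, 4 were called upward and none downward, with vars2 at 5.08 and 20.8 RPKM and HARS2 at 5.67 and 19.3 RPKM. Of 12 genes for transcription of mitochondrial DNA and the care of its RNA, 5 were called upward and none downward, with SUPV3L1, an RNA helicase, at 8.57 and 36.3 RPKM and MTPAP, the mitochondrial poly(A) polymerase, at 6.16 and 25.3 RPKM. The list of 12 also holds POLG (0.26) and SSBP1 (0.58), which neither transcribe mitochondrial DNA nor care for its RNA. The medians of the last 2 lists were 0.93 and 0.86. All 5 lists thus had a higher median than the 59 ribosomal protein genes and than all genes, and no test was made between lists. These comparisons were not matched for level, which went with the difference. The median was 0.75 for all genes of the family's level and 1.022 for all genes that reached 5 RPKM in either table. The 4 subunits with other symbols all reached 5 RPKM, and their median of 1.01 did not lie above 1.022. With 4 to 20 genes a list, their shares of upward calls lay near or above that of all genes. Given an equal median ratio, their medians lay between -0.03 and 0.28, against -0.24 for the 59 genes.

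The substrates of the mitochondrial ribosome and its cytosolic counterpart lay lower. For the counts that follow, the shares of all genes were 33.0% called upward and 10.9% called downward. Of all genes, 21.2% lay 2-fold or more under the all-gene median. The 13 protein genes of the mitochondrial genome had a median difference of -0.08, no upward call, 2 downward calls and 6 genes that lay 2-fold or more under the all-gene median. Their levels were far above those of the mrpl and mrps genes, from 63.4 to 410 RPKM at 2 hpf and 63.4 to 374 RPKM at 4 hpf. The 66 nuclear genes for respiratory chain and ATP synthase subunits did not lie lower. Their median was 0.65, against 0.66 for all genes, with 13 upward (19.7%) and 2 downward (3.03%) calls. The 72 cytosolic ribosomal protein genes had a median of -0.27, no upward call and 12 downward calls (16.7%). Of these 72 genes, 31 lay 2-fold or more under the all-gene median. Their median percentile went from 86.1 to 72.7, whereas that of the mitochondrial ribosomal protein genes went from 52.7 to 47.4. The latter is not the move of a typical member, since the median shift of single members was 0.83, with 30 up and 29 down. Shifts of single cytosolic genes were not summarized. At an equal median ratio the medians were -0.24 for the mitochondrial and -1.13 for the cytosolic ribosomal protein genes, so their order held while the sign of the first turned.

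**Figure D4:**
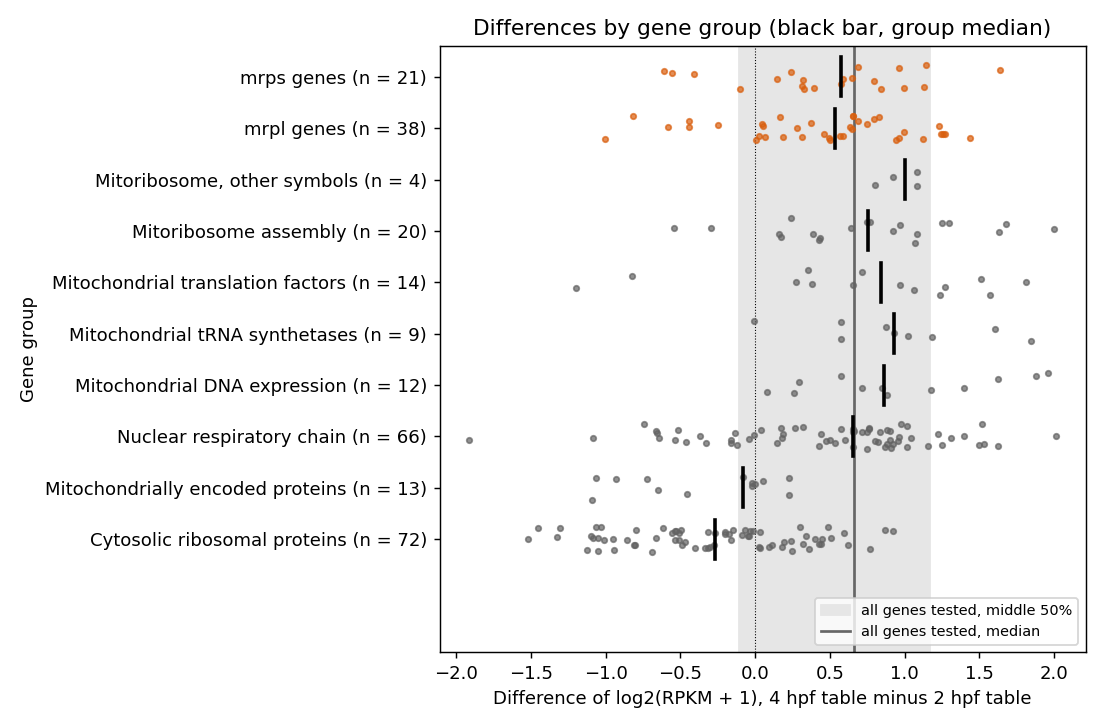
Difference of log2(RPKM + 1) between the tables, 4 hpf minus 2 hpf, for each gene (points) of the mrps group (MRPS18A included), the mrpl group and 8 related groups; black bars are group medians, the grey line is the median of all 13341 genes (0.66) and the band spans their quartiles. The 59 ribosomal protein genes of mitochondria spread from -1.003 to 1.64 around that line, with 38 to its left and 21 to its right. Of the 72 cytosolic ones, 69 lie to its left and 3 to its right, with a median of -0.27.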

How the data were processed

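The authors deposited RPKM, 1 value per Ensembl gene ID and age; that each is the mean of 2 libraries was read from the table names and the steps of the low values. The submitters' processing notes name TopHat2 2.1.1, Bowtie, Trimmomatic 0.36, cutadapt 1.13, bedtools 2.16.2 and MACS2 2.0.10, with build Zv9; annotation and counter: not given in the sources used here. Because RPKM is relative, a few abundant features lower all others, and near-identical genes may have shared or lost reads in the authors' counting.

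A table of gene names gave symbols for 20039 of 27205 IDs (73.7%), and no member symbol sat on several IDs. A gene missing from 1 table was set to 0 there. Differences of log2(RPKM + 1) understate the change of low genes and, with 1 mean per age, have no test, SD or n. The members, lists and tests were chosen with earlier results of these data known. By rule, the text draws on the 8 highest members, the 8 with the widest and the 8 with the smallest difference among those reaching 5 RPKM, those at the limit of 1 RPKM and a few picked for their role; others were chosen after their values were seen.

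Deposited means were matched to whole reads in 2 libraries, each RPKM rounded to 6 digits, for lengths of 100 to 6000 bases, and kept where at most 0.01 fits were expected by chance; 0.43 are expected over all members. The recovered RPKM were tested with limma 3.58.1 in R 4.3.3 (trend, empirical Bayes, Benjamini-Hochberg, threshold 0.05). Both steps were checked on simulated data. The changes planted for limma were wider than any member's, so that check does not show what limma can find at the members' size of difference. Nothing says whether the replicates came from separate clutches, so p-values measure only the spread between these libraries. Alternatives were other pseudocounts, filters, scalings and thresholds and leaving out each library. Positions and sequences are not given, since no genome of that build was used.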

Additional observations from a re-analysis of the deposited data

How the results depend on the processing

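The counts of members called followed the scaling and the pseudocount. The shares of all genes hold for the main settings alone: 33.0% upward, 10.9% downward, 7.85% above and 21.2% below the median. For the other settings such shares are not given, so the counts show only how the calls depend on the processing. The upward count of 9 became 18 at a pseudocount of 0.1, 2 at 5, 23 after rescaling to an equal sum, and 0 at an equal median ratio, after quantile normalization, on sums that leave out the 100 highest genes and at a 4-fold threshold. The downward count of 1 became 0 at a pseudocount of 5, with 5 RPKM required, at an equal sum and at 4-fold, 7 at an equal median ratio, 4 after quantile normalization and 5 without the 100 highest genes. The members' median of 0.57 was 0.24 at a pseudocount of 5, 0.84 at an equal sum, -0.24 at an equal median ratio, 0.037 after quantile normalization and -0.11 without the 100 highest genes. Under the same 5 settings the median of all genes was 0.32, 0.99, -0.075, 0.22 and 0.061, and it was 0.049 with no filter and 1.022 with 5 RPKM required. Small-subunit medians were 0.77 with 5 RPKM required, 0.82 at an equal sum, -0.26 at an equal median ratio, 0.0047 after quantile normalization and -0.14 without the 100 highest genes. Large-subunit medians were 0.80, 0.84, -0.21, 0.0435 and -0.077 there, and 0.22 at a pseudocount of 5. Members lying 2-fold or more over the all-gene median numbered 1 at a pseudocount of 5 and at an equal sum and 9 with no filter; those below numbered 0 at a pseudocount of 5 and at 4-fold, 1 with no filter, 2 with 5 RPKM required and 5 at an equal median ratio. The members' median minus that of all genes was negative under every setting (-0.25 to -0.07) except no filter (0.44), which adds genes near 0. Among genes listed in both tables, median percentiles were 73.3 and 70.2. Leaving out each library gave 0 to 1 members past limma's adjusted p in either direction, but without a library of 4 hpf 0 of all 2984 genes passed (421 to 457 upward and 622 downward at an unadjusted limma p under 0.05), so no member could. With 1 RPKM required in both tables, recovered members with non-overlapping ages were 6 above and 1 below in place of 11 and 2. A median was counted as moved past 0.25 and a percentile past 5, tolerances chosen here. No paired analysis was possible because the tables hold means and the recovered libraries carry no replicate number. Depth limits the low members most, since single libraries held as few as 1 read.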
